A study of Homo sapiens with 8 samples.

Results

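Homologous recombination repairs broken and stalled DNA by copying an intact sister strand, and the Fanconi anaemia pathway unhooks DNA interstrand crosslinks and passes the resulting break to recombination. A set of 44 genes of these pathways was chosen by symbol, and 38 of them had a value among 18404 genes. The values come from HepG2, an established line of human liver tumour cells, measured on 8 single-channel whole-transcript expression arrays. Untreated cultures (4 arrays, titled Normal) received medium alone. Treated cultures (4 arrays, titled Senescent) received 0.5 mM hydrogen peroxide (H2O2), an oxidant that damages DNA, for 60 minutes. Cells were then washed, and 5 days passed before the senescent phenotype, a lasting arrest of cell division, was tested, and the labels state no other time for the RNA. Both groups share the cell line and the growth medium, and the 4 cultures of each condition are described as biological replicates, so the values describe 1 tumour line.

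In these pathways a break is first sensed by the MRE11-RAD50-NBN complex, which activates the kinase ATM, while single-stranded DNA activates the kinase ATR. Nucleases such as EXO1 resect the ends, BRCA1 with BARD1, PALB2 and BRCA2 prepare the single strand, and accessory proteins promote its invasion of the sister strand. The Fanconi core complex is a ubiquitin ligase that marks the FANCI-FANCD2 pair at a crosslink. Joined strands are at last separated by the BLM-TOP3A-RMI complex or cut by nucleases. Recombination works mainly in S and G2 phase, when a sister strand exists, and many of these genes are transcribed most in cycling cells.

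The promoters of 5 members are shown first: MND1 and RAD51AP1, the largest falls, FANCC, the only printed member with more than 1 match to the letters searched, and ATR and RAD51C, the only members that rose. RefSeq promoter windows on build GRCh38.p14 were matched for 34 of the 38 measured members, each from 250 bases before to 50 bases after the gene's start. Each window was searched on both strands for letters of the E2F binding motif (TTTCCCGC, TTTCGCGC or TTTGGCGC), the site of the factors that drive S phase transcription. Only the 250 bases before the start are printed, 5′ to 3′ on the gene's strand, with E2F letters in capitals. MND1 lies downstream of chr4:153344438-153344687 (plus strand), FANCC of chr9:95317710-95317959 (minus strand), RAD51AP1 of chr12:4538640-4538889 (plus strand), ATR of chr3:142578734-142578983 (minus strand) and RAD51C of chr17:58692323-58692572 (plus strand).
MND1: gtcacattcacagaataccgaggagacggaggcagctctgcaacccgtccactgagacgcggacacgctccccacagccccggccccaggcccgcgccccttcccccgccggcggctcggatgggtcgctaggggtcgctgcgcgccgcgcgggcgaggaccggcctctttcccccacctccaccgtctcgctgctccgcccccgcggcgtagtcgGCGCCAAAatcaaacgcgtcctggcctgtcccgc
FANCC: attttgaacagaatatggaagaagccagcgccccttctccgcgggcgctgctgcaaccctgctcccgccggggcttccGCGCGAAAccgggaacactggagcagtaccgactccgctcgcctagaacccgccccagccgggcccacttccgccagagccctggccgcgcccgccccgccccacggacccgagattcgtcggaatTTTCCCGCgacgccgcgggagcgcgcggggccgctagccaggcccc
RAD51AP1: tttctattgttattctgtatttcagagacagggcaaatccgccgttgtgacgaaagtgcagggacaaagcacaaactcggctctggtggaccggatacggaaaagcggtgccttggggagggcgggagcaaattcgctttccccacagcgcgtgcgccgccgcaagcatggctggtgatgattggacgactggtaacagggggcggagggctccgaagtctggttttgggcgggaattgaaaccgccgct
ATR: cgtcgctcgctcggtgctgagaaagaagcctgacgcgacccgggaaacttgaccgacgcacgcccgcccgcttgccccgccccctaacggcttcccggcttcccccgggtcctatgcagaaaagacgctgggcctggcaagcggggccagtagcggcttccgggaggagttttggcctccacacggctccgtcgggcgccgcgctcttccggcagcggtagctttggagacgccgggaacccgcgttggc
RAD51C: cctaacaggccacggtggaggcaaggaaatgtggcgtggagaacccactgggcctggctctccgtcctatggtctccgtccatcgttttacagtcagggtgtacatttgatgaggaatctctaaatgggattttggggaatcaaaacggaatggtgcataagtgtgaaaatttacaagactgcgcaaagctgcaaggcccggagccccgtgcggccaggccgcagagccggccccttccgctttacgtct
In MND1 the match begins at -34 relative to the start, and in FANCC the matches begin at -172 and -46. E2F letters were found in 5 of the 22 windows of members that fell (22.7%; MND1, FANCC, TOPBP1, EXO1 and XRCC2) and in 1 of the 12 windows of the other members (8.33%; GEN1). The share was 3.84% of 14230 windows of genes tested and 2.79% of all 27305 windows of that length. The CCAAT box was found in 9 of the 22 windows of members that fell (40.9%), 5 of the 12 others (41.7%) and 36.3% of windows of genes tested. The cell cycle element TTTGAA or TTCGAA was found in 3 of the 22 (13.6%), 1 of the 12 (8.33%) and 13.3%. The printed E2F matches do not overlap. These matches describe letters in a window and were not tested.

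Most of the repair genes were lower after H2O2. Of the 38 measured members 25 fell (65.8%), against 14.8% of all genes, and 2 rose (5.26%), against 19.2% of all genes, while 11 did not pass the test. The test was limma's moderated test on log2 values with Benjamini-Hochberg adjustment over all 18404 genes, at an adjusted p under 0.05, and every adjusted p of a gene given here comes from it. The median log2 difference, H2O2 minus untreated, was -0.48 over the 38 members and -0.022 over all genes. The lowest member was MND1 at -1.50, and the highest was ATR at 0.59. In 6 members (15.8%) the fall was 2-fold or more, against 1.12% of all genes. In 25 of the 38 members every H2O2 array lay below every untreated array, against 14.8% of all genes. These were 24 of the 25 members that fell, all but XRCC3, and PSMC3IP, which did not pass. Each culture was measured in bulk, so fewer cycling cells and less RNA per cell cannot be told apart.

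**Figure D1:**
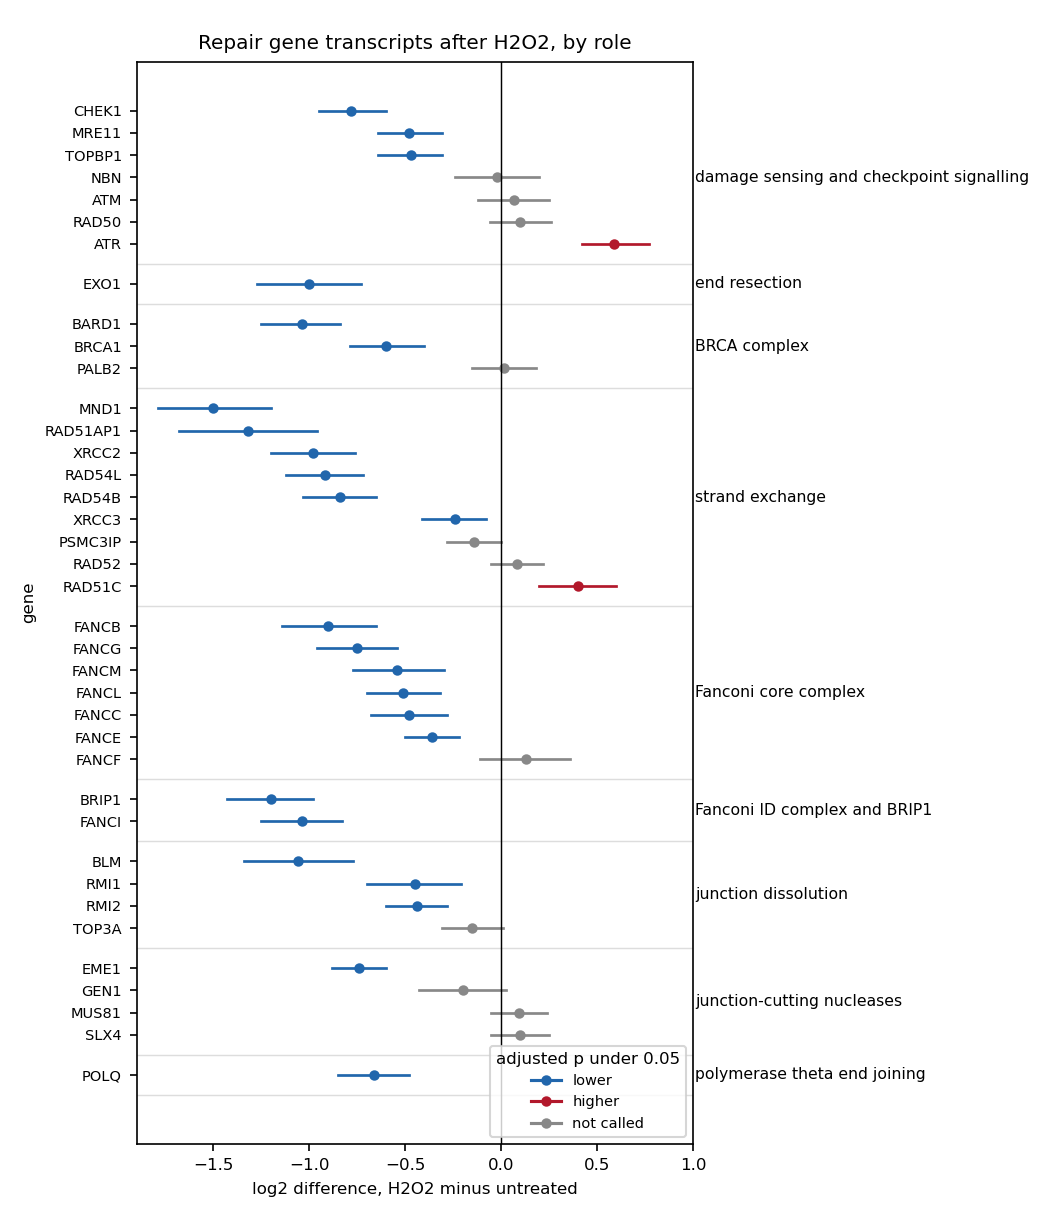
Log2 difference (H2O2 minus untreated, n = 4 arrays per group) of the 38 measured repair genes, grouped by role, with 95% confidence intervals from limma; colour gives the call. Most points lie left of 0, from -1.50 for MND1, and the only called rises are ATR at 0.59 and RAD51C at 0.40.

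Among the sensors and checkpoint genes the members parted ways. Of 7 measured genes 3 fell, 1 rose and 3 did not pass, with a median log2 difference of -0.0213. CHEK1, the kinase that ATR activates to hold the cell cycle, read 9.53, 9.61, 9.56 and 9.35 untreated and 8.77, 8.90, 8.59 and 8.69 after H2O2 (here and below replicates 1 to 4 in that order), a fall of 1.71-fold (log2 difference -0.78 ± 0.082, standard error here and below, n = 4 per group, limma adjusted p = 6.12e-06). Its groups lay 0.45 apart. MRE11, the nuclease of the break sensor, read 7.76, 7.65, 7.88 and 7.75 untreated and 7.32, 7.37, 7.11 and 7.32 after H2O2 (-0.48 ± 0.077, adjusted p = 0.000229). TOPBP1, which activates ATR, fell by a similar amount (-0.47 ± 0.075). ATR itself moved the other way. Its arrays read 7.26, 7.26, 7.51 and 7.35 untreated and 7.99, 8.03, 7.76 and 7.97 after H2O2, 1.51-fold higher (0.59 ± 0.081, adjusted p = 6.24e-05), and every treated array lay above every untreated one.

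The other members of the sensor complex did not pass. NBN, the adaptor that brings ATM to the break, read 9.01, 9.05, 8.99 and 8.82 untreated and 9.06, 9.18, 8.65 and 8.90 after H2O2, groups that overlap (-0.0213 ± 0.10, 95% interval -0.24 to 0.20). RAD50, the tethering subunit, gave 0.10 ± 0.074 (interval -0.057 to 0.26), and ATM gave 0.0653 ± 0.086 (interval -0.12 to 0.25). These intervals, each for 1 gene, do not reach the estimate for MRE11 (-0.48, interval -0.64 to -0.31). They are not a test of MRE11 against these genes.

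End resection could be read from EXO1 alone. This 5′ to 3′ exonuclease read 7.76, 7.85, 7.63 and 7.5 untreated and 6.82, 7.03, 6.52 and 6.37 after H2O2, just short of a 2-fold fall (-1.0 ± 0.13, adjusted p = 2.84e-05). The groups did not overlap, and 3 of the treated arrays lay below their own median over all probe sets, where signal above background is not known. RBBP8, the cofactor that starts resection with MRE11, is among the members with no value.

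In the BRCA complex both subunits of the BRCA1 ubiquitin ligase fell and PALB2 did not pass. BARD1 read 8.56, 8.65, 8.37 and 8.51 untreated and 7.55, 7.71, 7.32 and 7.33 after H2O2, 2.06-fold lower (-1.04 ± 0.095, adjusted p = 1.43e-06), with groups 0.66 apart. Its partner BRCA1 read 7.98, 8.11, 8.27 and 7.98 untreated and 7.47, 7.69, 7.31 and 7.48 after H2O2, 1.51-fold lower (-0.60 ± 0.091, adjusted p = 0.000153). PALB2, which bridges BRCA1 to BRCA2, read 9.44, 9.47, 9.42 and 9.31 untreated and 9.43, 9.57, 9.26 and 9.43 after H2O2. The treated range encloses the untreated range, and the difference was 0.0141 ± 0.077 (interval -0.15 to 0.18, adjusted p = 0.914).

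Strand exchange held the largest falls. Of 9 measured genes 6 fell, 1 rose and 2 did not pass, with a median of -0.84. MND1, which with PSMC3IP stimulates strand exchange, read 8.14, 8.28, 7.98 and 7.94 untreated and 6.75, 6.92, 6.13 and 6.56 after H2O2, 2.82-fold lower (-1.50 ± 0.14, adjusted p = 1.80e-06), with groups 1.02 apart. RAD51AP1, which aids strand pairing, read 8.55, 8.80, 8.28 and 8.56 untreated and 7.43, 7.67, 6.71 and 7.12 after H2O2, 2.49-fold lower (-1.32 ± 0.17, adjusted p = 2.95e-05). In both genes H2O2 replicate 3 was the lowest and H2O2 replicate 2 the highest treated array, and untreated replicate 2 was the highest untreated array. Of the treated arrays, 3 of MND1 and 1 of RAD51AP1 lay below their own median, where signal above background is not known. The motor proteins RAD54L (-0.92 ± 0.094) and RAD54B (-0.84 ± 0.086), which remodel the paired strands, and the strand exchange mediator XRCC2 (-0.98 ± 0.10) fell as well.

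RAD51C, another mediator of strand exchange, rose. It read 8.33, 8.45, 8.16 and 8.11 untreated and 8.74, 8.82, 8.47 and 8.63 after H2O2, 1.32-fold higher (0.40 ± 0.093, adjusted p = 0.00397), and the groups lay 0.02 apart. XRCC3, with which it pairs, gave -0.24 ± 0.077 (adjusted p = 0.0247) with overlapping groups. That call was lost without untreated replicate 2 (-0.23), untreated replicate 4 (-0.22), H2O2 replicate 1 (-0.23), H2O2 replicate 2 (-0.23) or H2O2 replicate 4 (-0.21), at adjusted p = 0.0586 to adjusted p = 0.0865. RAD52, which anneals single strands, read 8.31, 8.39, 8.47 and 8.38 untreated and 8.52, 8.42, 8.49 and 8.45 after H2O2, groups that overlap (0.0835 ± 0.064, interval -0.055 to 0.22). PSMC3IP, the partner of MND1, gave -0.14 ± 0.064 (interval -0.28 to -0.00041, adjusted p = 0.118) with groups 0.02 apart.

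**Figure D2:**
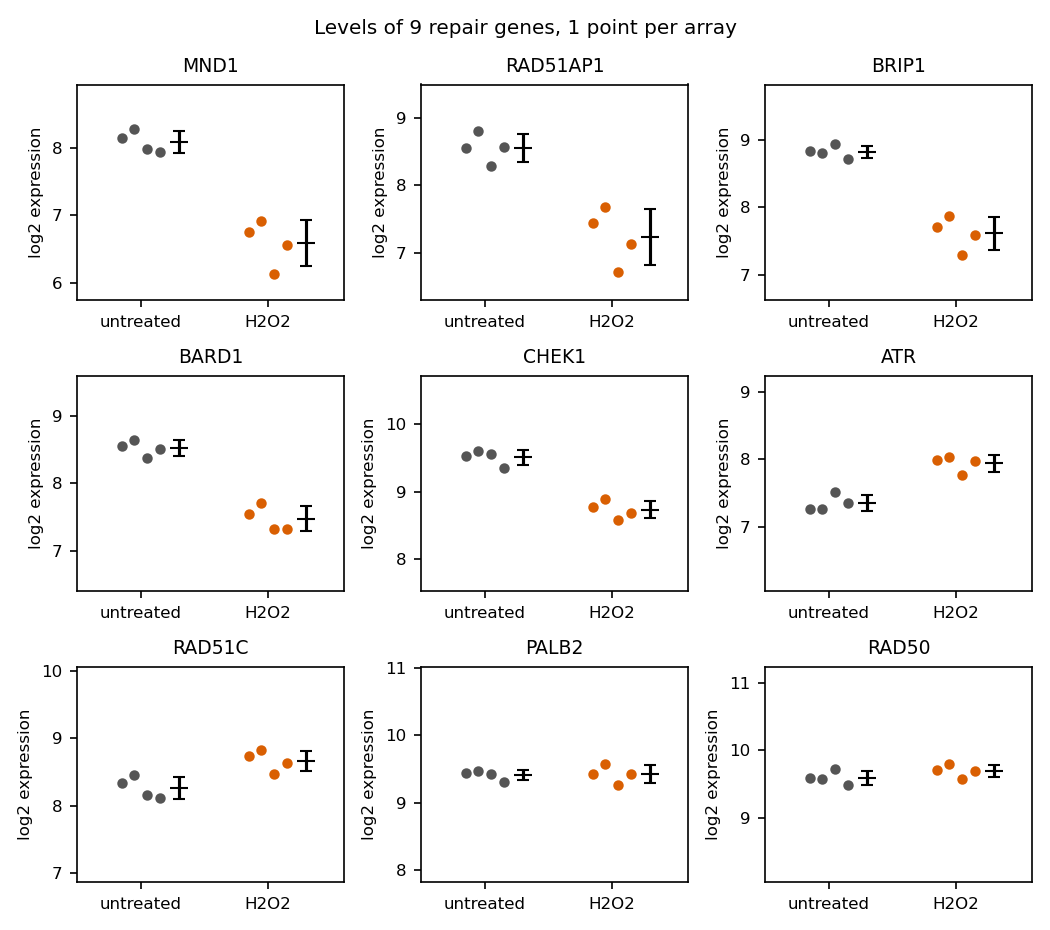
Log2 expression of 9 repair genes, 1 point per array (replicates 1 to 4 from left to right), with the mean and SD of each group beside the points (n = 4); every panel spans the same log2 range. MND1, RAD51AP1, BRIP1, BARD1 and CHEK1 fall without overlap, ATR and RAD51C rise without overlap, and the groups of PALB2 and RAD50 overlap.

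The Fanconi core complex fell in 6 of its 7 measured subunits, with a median of -0.51. FANCB, which joins the catalytic module, read 6.81, 6.90, 6.90 and 6.93 untreated and 5.95, 6.40, 5.82 and 5.77 after H2O2 (-0.90 ± 0.11, adjusted p = 2.98e-05). Of its 8 arrays 5 lay below their own median. FANCG, a scaffold subunit, read 8.22, 8.47, 8.21 and 8.26 untreated and 7.59, 7.80, 7.33 and 7.43 after H2O2 (-0.75 ± 0.099, adjusted p = 4.23e-05), with groups 0.41 apart. FANCL, the ubiquitin ligase subunit, fell by 0.51 ± 0.088 on the log2 scale, and the subunits FANCC (-0.48 ± 0.093) and FANCE (-0.36 ± 0.067) fell too. FANCM, the DNA translocase that anchors the complex, fell by 0.54 ± 0.11 and lay below the array median on all 8 arrays. FANCF, an adaptor subunit, did not pass. It read 7.65, 7.5, 7.77 and 7.62 untreated and 7.97, 7.99, 7.51 and 7.58 after H2O2, where replicates 1 and 2 were high and replicates 3 and 4 within the untreated range (0.13 ± 0.11, interval -0.11 to 0.36).

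Downstream of the core complex both measured members fell 2-fold or more. BRIP1, the BRCA1-binding helicase also called FANCJ, read 8.84, 8.81, 8.93 and 8.71 untreated and 7.71, 7.87, 7.29 and 7.59 after H2O2, 2.30-fold lower (-1.20 ± 0.11, adjusted p = 1.03e-06), with groups 0.84 apart. FANCI, which is ubiquitinated with FANCD2, read 9.0, 9.05, 9.03 and 8.87 untreated and 7.94, 8.25, 7.74 and 7.88 after H2O2, 2.05-fold lower (-1.04 ± 0.098, adjusted p = 2.01e-06). All treated arrays of both genes lay below all untreated arrays.

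Of the 4 genes that dissolve joined strands 3 fell. BLM, the helicase mutated in Bloom syndrome, read 7.76, 7.85, 7.99 and 7.62 untreated and 6.86, 7.11, 6.36 and 6.67 after H2O2, 2.08-fold lower (-1.06 ± 0.13, adjusted p = 2.58e-05). Of its treated arrays 3 lay below their own median. RMI1, which holds BLM to its topoisomerase, read 8.21, 8.28, 8.0 and 8.10 untreated and 7.84, 7.97, 7.37 and 7.59 after H2O2 (-0.45 ± 0.11, adjusted p = 0.00695), and its groups lay 0.03 apart. RMI2, its partner, fell by 0.44 ± 0.075 on the log2 scale. TOP3A, the topoisomerase, did not pass, at 8.55, 8.64, 8.73 and 8.43 untreated and 8.40, 8.47, 8.48 and 8.39 after H2O2 (-0.15 ± 0.075, interval -0.31 to 0.0084).

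Among 4 genes for cutting joined strands, nuclease subunits and the scaffold SLX4, 1 fell. EME1 read 8.23, 8.21, 8.27 and 8.26 untreated and 7.55, 7.59, 7.43 and 7.44 after H2O2, 1.67-fold lower (-0.74 ± 0.065, adjusted p = 1.06e-06), with little spread in either group. MUS81, the catalytic partner of EME1, read 8.23, 8.15, 8.15 and 8.36 untreated and 8.31, 8.27, 8.35 and 8.32 after H2O2 (0.092 ± 0.068, interval -0.055 to 0.24). The scaffold SLX4 gave 0.0963 ± 0.069 (interval -0.053 to 0.25). The resolvase GEN1 gave -0.20 ± 0.11 (interval -0.43 to 0.025, adjusted p = 0.167), and without H2O2 replicate 2 it passed at -0.30 (adjusted p = 0.0256). POLQ, the polymerase of a mutagenic end joining route that competes with recombination, read 6.56, 6.69, 6.75 and 6.65 untreated and 5.95, 6.25, 5.91 and 5.89 after H2O2 (-0.66 ± 0.085, adjusted p = 3.38e-05), below the array median on all 8 arrays.

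By role, then, lower calls covered 3 of 7 sensors and checkpoint genes (42.9%) and 6 of 9 strand exchange genes (66.7%). They covered 6 of 7 core complex subunits (85.7%) and 1 of 4 genes for cutting joined strands (25%). Each share is to be read against 14.8% of all genes. Whether the roles differ was not tested. With limma's treat, which asks whether a difference exceeds 0.25 on the log2 scale, the calls of RAD51C, XRCC3, FANCC, FANCE, FANCM, RMI1 and RMI2 were lost.

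Several proteins that work as partners were encoded by transcripts that changed by unequal amounts, but none of these inequalities passed after adjustment. For 11 pairs with both genes measured, the log2 difference between the 2 genes was taken on each array and its group means were compared by an exact two-sided permutation test over the 8 arrays. The smallest p that 4 against 4 arrays allow is 0.0286, and 6 pairs reached it, which gave an adjusted p = 0.0524 over the 11 pairs in this exact permutation test. Over 11 pairs, this smallest p can pass only if more than 6 pairs reach it. The test therefore cannot decide on any single pair. They were MND1 with PSMC3IP (-1.36, the change of the first gene minus that of the second), BLM with TOP3A (-0.90), EME1 with MUS81 (-0.83), MRE11 with RAD50 (-0.58), RAD51C with XRCC3 (0.65) and BRCA1 with BARD1 (0.45). In each of these 6 pairs all treated arrays lay on one side of all untreated arrays, although for BRCA1 with BARD1 the nearest arrays of the groups both read -0.09. The other pairs were FANCB with FANCL (-0.39, exact p = 0.0857), NBN with RAD50 (-0.12, exact p = 0.20), FANCC with FANCE (-0.12, exact p = 0.20), the paralogs RAD54L and RAD54B (-0.0785, exact p = 0.60) and RMI2 with RMI1 (0.0146, exact p = 0.943).

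**Figure D3:**
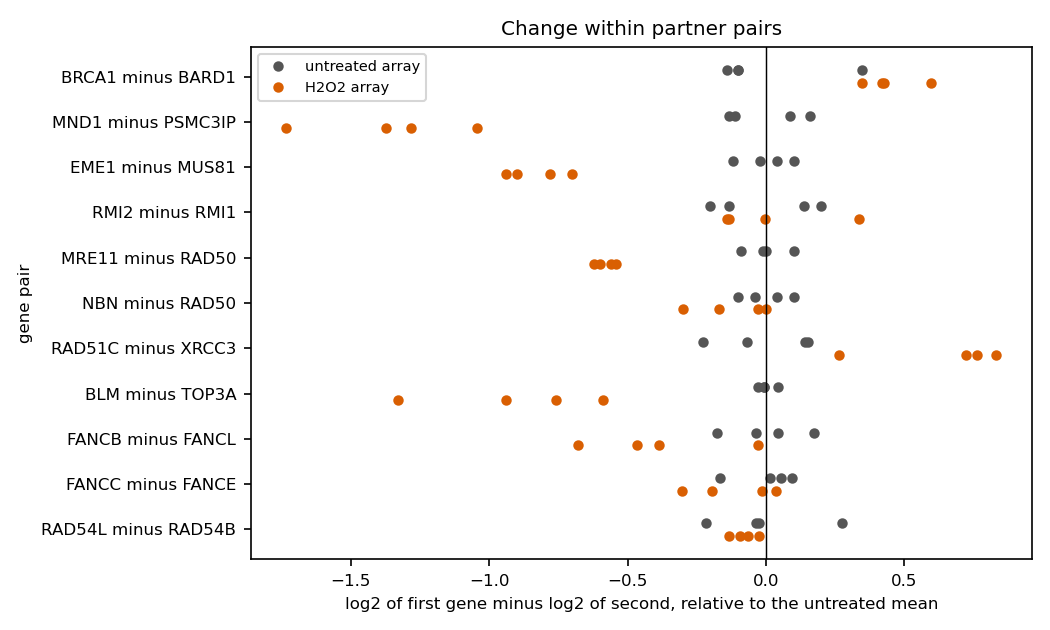
Log2 value of the first gene minus that of the second on each array, relative to the mean of the untreated arrays, for 11 pairs; grey points are untreated and orange points H2O2 arrays (n = 4 each). The MND1 and PSMC3IP pair moves furthest, by -1.36, and the arrays of RMI2 and RMI1 overlap.

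The treated arrays kept a similar order in most of the members that fell. Among the 25 members that fell, H2O2 replicate 2 was the highest treated array in 22 and H2O2 replicate 3 the lowest in 16. Over all genes called lower these shares were 51.0% and 45.6%, and over all genes 26.5% and 31.0%. Relative to the untreated means, the median over those 25 members was -0.72, -0.49, -0.93 and -0.82 in H2O2 replicates 1 to 4. In untreated replicates 1 to 4 it was -0.00826, 0.046, 0.0438 and -0.0508, so replicate 2 was highest there too, by little. A list of 29 measured S phase and mitosis genes stood at -0.87, -0.66, -1.07 and -1.05 in the same treated arrays, again highest in H2O2 replicate 2 and lowest in H2O2 replicate 3. Among the untreated arrays that list was highest in replicate 2 (0.11) and lowest in replicate 4 (-0.0926). The 10 measured hepatocyte markers, of which 6 fell, stood at -0.28, -0.18, -0.42 and -0.42, also highest in H2O2 replicate 2 but level in replicates 3 and 4. In 23 of the 25 members the treated arrays spanned a wider range than the untreated arrays. The share of all genes with a wider treated range was not counted, so this cannot be called particular to the members. The part of either list in this order was not tested. Without H2O2 replicate 3, 25 members fell, and without H2O2 replicate 2, 25 fell, with GEN1 called and XRCC3 lost.

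**Figure D4:**
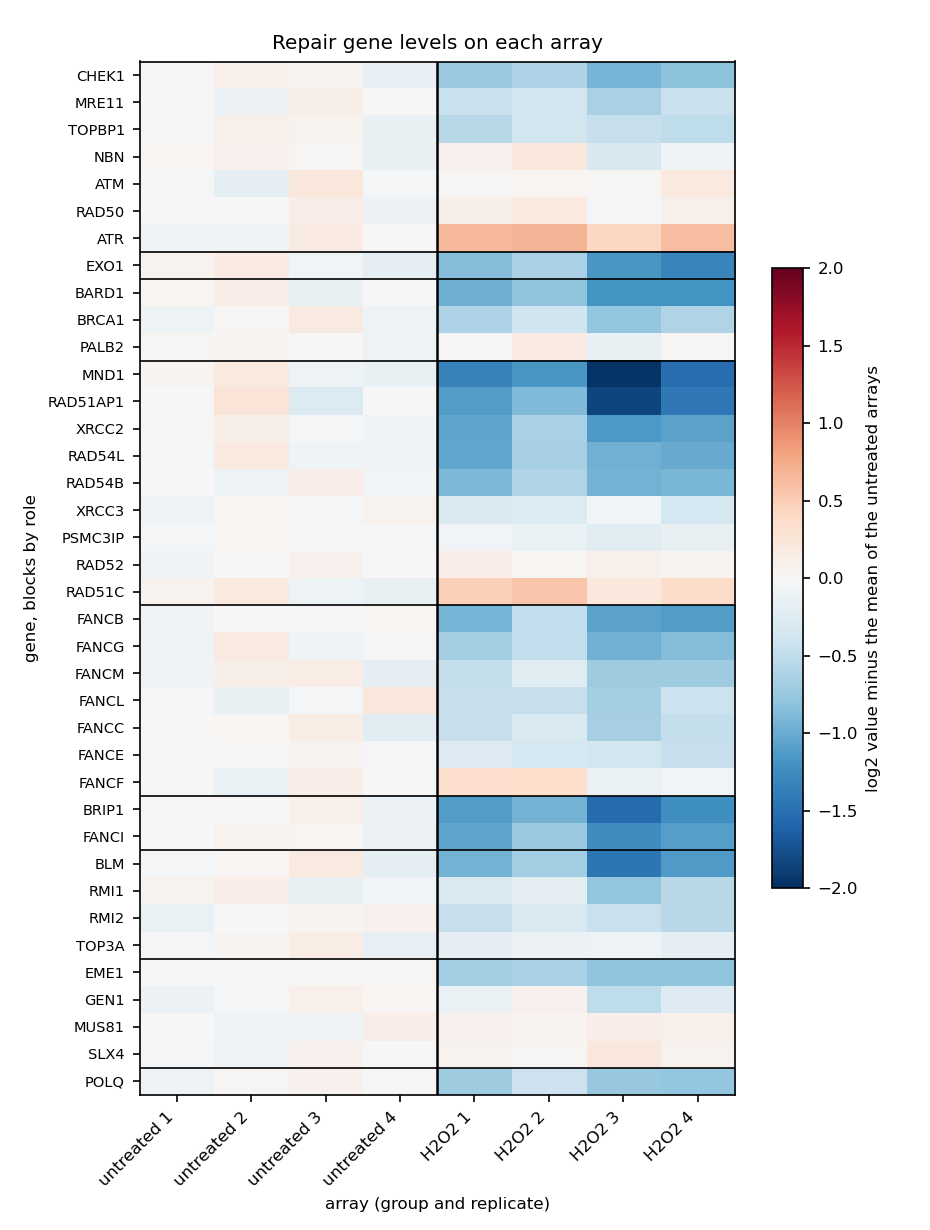
Log2 value of each of the 38 measured members on each of the 8 arrays, minus the mean of the 4 untreated arrays (blue lower, red higher), in blocks by role. H2O2 replicate 3 holds the darkest blue cells and H2O2 replicate 2 the palest in most falling members, while ATR and RAD51C are red in all treated arrays.

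Other genes of the pathways, on lists that hold none of the members, were also mostly lower where they passed. Of 80 measured genes 35 fell (43.8%), against 14.8% of all genes, and 12 rose (15%), against 19.2% of all genes, with a median of -0.16. Among 30 other recombination genes 13 fell and 3 rose. The replication fork protein MMS22L (-1.08 ± 0.12), PARPBP (-0.94 ± 0.16), which restrains recombination, and FIRRM (-0.92 ± 0.11) fell most. The helicases HELQ (0.37 ± 0.10) and FBH1 (0.29 ± 0.082) and the strand exchange cofactor SWI5 (0.23 ± 0.070) rose. HELQ lay below the array median on 6 of 8 arrays, and the nearest arrays of its groups both read 6.71. The groups of FBH1 lay 0.02 apart. Among 19 other Fanconi and crosslink repair genes 8 fell and 5 rose. The deubiquitinase USP1 (-0.93 ± 0.11), the ubiquitin-conjugating enzyme UBE2T (-0.79 ± 0.13), which both act on FANCI and FANCD2, and UHRF1 (-0.73 ± 0.079) fell most. The crosslink-cutting nuclease subunits ERCC4 (0.48 ± 0.072) and ERCC1 (0.38 ± 0.063) and the translesion polymerase REV3L (0.41 ± 0.073) rose.

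Among 31 other damage signalling and checkpoint genes 14 fell (45.2%), against 14.8% of all genes, and 4 rose (12.9%), against 19.2% of all genes. The mitotic phosphatase CDC25C (-1.46 ± 0.13), the kinases CHEK2 (-0.79 ± 0.093) and WEE1 (-0.75 ± 0.072) and CLSPN (-0.69 ± 0.12), the adaptor between ATR and CHEK1, fell. BABAM2 (0.48 ± 0.063) and ABRAXAS1 (0.36 ± 0.078), subunits of the BRCA1-A complex that limits resection, and TP53BP1 (0.39 ± 0.079), which protects ends from resection, rose. UHRF1, WEE1 and CLSPN have further probe sets with smaller differences, at -0.15 for UHRF1, -0.43 and -0.31 for WEE1 and -0.49 for CLSPN.

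**Figure D5:**
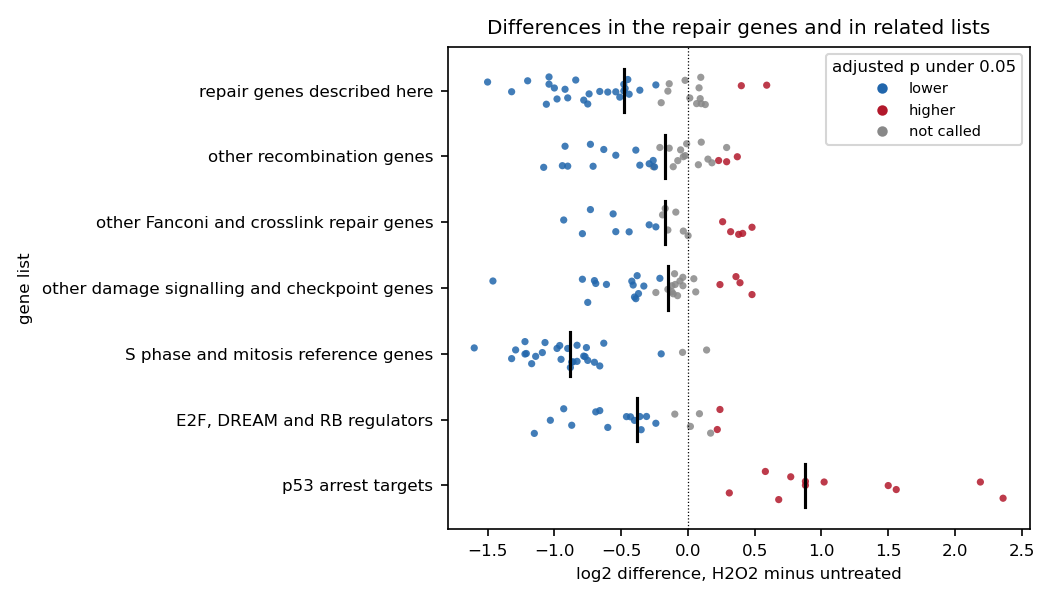
Log2 difference (H2O2 minus untreated) of each measured gene in the repair set and in 6 related lists, 1 point per gene spread vertically for sight, with the list's median as a black bar; colour gives the call. The repair genes have a median of -0.48, between the other pathway lists (-0.18, -0.17 and -0.15) and the S phase and mitosis genes (-0.88).

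The state of the cultures was read from genes outside the pathways. CDKN1A, the cell cycle inhibitor p21, was higher after H2O2 (2.36 ± 0.067), and all 11 measured p53 arrest targets rose, against 19.2% of all genes. TIGAR (2.19 ± 0.12) and TP53INP1 (1.56 ± 0.064) were next in size. Of 29 S phase and mitosis genes 27 fell (93.1%), against 14.8% of all genes, led by KIF11 (-1.6 ± 0.16), MKI67 (-1.32 ± 0.10) and CCNB2 (-1.29 ± 0.12). LMNB1, a nuclear lamina protein, fell as well (-1.07 ± 0.10). The S phase genes that did not pass were PCNA (0.14 ± 0.090) and CCNE2 (-0.0402 ± 0.19). All 10 measured hepatocyte markers lay above the array median on every array, with mean levels of 11.90 to 11.94 untreated and 11.49 to 11.76 after H2O2. Of these 10 markers 6 fell (60%), against 14.8% of all genes, and 1 rose (10%), against 19.2% of all genes, with a median of -0.33. The largest falls were in the secreted proteins TF (-0.90 ± 0.094), FGB (-0.71 ± 0.14) and AFP (-0.56 ± 0.077), and TTR rose (0.26 ± 0.084). Of the markers of other cell types, 6 of 10 for fibroblasts and stellate cells, 6 of 8 for leukocytes and macrophages and 7 of 8 for endothelium lay below the array median on every array. Mean levels of these lists were 6.60 to 6.66 untreated and 6.60 to 6.86 after H2O2 for the first, 6.32 to 6.38 and 6.36 to 6.54 for the second, and 5.74 to 5.87 and 5.65 to 5.89 for the third. The markers DCN, PTPRC and PECAM1, picked after their values were seen, did not pass and had untreated means of 4.30, 4.23 and 6.35. A dimmer probe set of PECAM1 gave 0.93. Other markers of these lists were brighter. Untreated means were 10.05 for ACTA2, 8.13 for PDGFRB, 7.58 for COL1A1 and 7.36 for DES. They were 9.56 for CD68, 7.26 for CD14 and 6.92 for CDH5. ACTA2 (1.5 ± 0.072), COL1A1 (0.41 ± 0.076), CD68 (0.80 ± 0.071) and CD14 (0.27 ± 0.064) rose and PDGFRB (-1.15 ± 0.088) and CDH5 (-0.25 ± 0.073) fell. The part of any of these marker lists in the repair gene results was not tested. Array medians lay between 6.85 and 6.93.

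Of the 44 members listed, 6 have no value here. BRCA2, FANCA, FANCD2 and RBBP8 are named by no probe set in the platform annotation used, and ATRIP and RAD51D lie on probe sets that name several genes. All 38 measured members are read by 1 probe set each. On all 8 arrays 28 of them lay above the array median, 8 on some arrays only, and 2, FANCM and POLQ, on none. The 8 were MND1, RAD51AP1, RAD54L, RAD54B, BLM, EXO1, FANCB and PSMC3IP.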

How the data were processed

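Total RNA of 8 HepG2 cultures was amplified and labelled with biotin as sense cDNA, per the labels' protocols. The authors deposited log2 expression values per probe set. Probe summarization and array normalization: not given in the sources used here. The submitters' processing notes name limma without role or version. The log2 scale was read from the values, and no background estimate or detection call was used.

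The platform annotation pairs 19158 of 32321 probe sets with 1 symbol, 1388 with several and 11775 with none, which are unnamed here. The brightest probe set was taken for each of 637 genes with several, which gave 18404 genes. No filter on low values was applied. Groups follow the sample titles. H2O2 minus untreated was fitted with limma 3.58.1 in R 4.3.3 (1 mean per group, empirical Bayes, Benjamini-Hochberg over all genes). The fit was tested on simulated data for these genes. Partner pairs, promoters and figures used Python 3.11.15 with scipy 1.17.1 and matplotlib 3.10.9. Members, roles, lists, pairs and motifs were chosen with earlier results of these data known. Values of every array are given, within each role, for the 2 largest called falls, the largest called rise and the smallest difference; of other lists the 3 largest called falls and rises are named, with CDKN1A, MKI67, LMNB1, UBE2T, E2F1 and CLSPN whatever their value. PCNA, CCNE2, DCN, PTPRC, PECAM1 and RB1 were chosen after their values were seen. Alternatives were quantile normalization, centred medians, leaving out dim genes, the mean of probe sets, an intensity trend with robust moderation, treat, the replicate number as a block and leaving out each array.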

Additional observations from a re-analysis of the deposited data

Results flagged for a closer look

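In groups of 4 arrays, 1 array stood apart from the other 3 when its gap to the nearest over the group's range exceeded Dixon's 95% critical value, which chance gives in about 1 of 20 groups. Over the 172 groups of 86 named genes this was met 9 times, against 8.6 by that rate. Among the repair genes, RAD54B was high in H2O2 replicate 2 (7.16, the others 6.82 to 6.86, gap ratio 0.896), and POLQ was high in the same array (6.25, the others 5.89 to 5.95, ratio 0.843). FANCL was low in H2O2 replicate 3 (8.16, the others 8.37 to 8.40, ratio 0.851). ATM was high in H2O2 replicate 4 (9.41, the others 9.24 to 9.26, ratio 0.848), and RAD54L was high in untreated replicate 2 (8.08, the others 7.80 to 7.85, ratio 0.843). Outside the set, untreated replicate 4 was low for USP1 (ratio 0.857) and LIN54 (ratio 0.911), untreated replicate 3 was high for CD68 (ratio 0.932), and H2O2 replicate 3 was low for RB1 (ratio 0.889). The calls of the repair genes RAD54B, POLQ, FANCL and RAD54L were kept, and ATM was not called, with each array left out in turn.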

How the results depend on the processing

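Of 567 values of single members recomputed under other settings, 553 kept their side of the threshold, 13 lost a call, 1 gained one and 0 called values reversed. Of the 553, 548 kept their direction, and 5 values near 0 of genes not called changed sign, 2 of NBN (0.00529 without untreated replicate 2, 0.0772 without H2O2 replicate 3) and 3 of PALB2 (-0.000483 under quantile normalization, -0.0203 without untreated replicate 4, -0.0349 without H2O2 replicate 2). Under treat at 0.25, calls over all genes were 2340 (903 lower, 1437 higher) in place of 6259 (2732 and 3527), members higher 1 in place of 2, and other pathway genes lower 18 in place of 35, since treat asks for a larger difference. Leaving out 1 array at a time gave 5404 to 6755 genes called (2228 to 3069 lower, 3110 to 3686 higher), 24 to 25 members lower, 2 higher, a member median of -0.53 to -0.45 and 32 to 37 other pathway genes lower. Leaving out dim genes removed 3 members that had fallen, FANCB, FANCM and POLQ, whose means lay below the cut of 6.8865. It left 22 lower, and no remaining member lost its call. Across all genes, arrays with the same replicate number did not deviate together (r = -0.0678, 0.0602, -0.247 and 0.094 for numbers 1 to 4). These correlations cannot exclude a shared day or batch, or a pairing seen in part of the genes. With the replicate number as a block 24 members fell and 5758 genes were called, and XRCC3 was lost (limma adjusted p = 0.0512). The block narrowed the standard error of some members (RAD51AP1 from 0.17 to 0.092) and widened that of others (MRE11 from 0.077 to 0.088). The pair tests called 0 pairs under quantile normalization, centred medians and the mean of probe sets, where the same smallest p limits them. Leaving out arrays was not run for pairs, since 3 against 4 arrays cannot give an exact permutation p below 0.0571. Signal over background is unknown, which limits the folds of members below the array median.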

Other observations

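Genes that control S phase transcription were mostly lower after H2O2 as well. Of 20 measured E2F, DREAM complex and RB family genes 14 fell (70%), against 14.8% of all genes, and 2 rose (10%), against 19.2% of all genes. Their median log2 difference was -0.38. LIN54, the DNA-binding subunit shared by the DREAM and MYB-MuvB complexes, read 9.02 ± 0.136 untreated and 7.87 ± 0.206 after H2O2 (SD, n = 4; -1.15 ± 0.10, limma adjusted p = 1.13e-06). FOXM1, a transcription factor of the G2 programme, fell by 1.03 ± 0.088 on the log2 scale, and the repressor E2F8 fell by 0.93 ± 0.097. E2F1, the activator of S phase genes, fell by 0.60 ± 0.067. The rises were E2F3 (0.24 ± 0.081, limma adjusted p = 0.0329), with overlapping groups, and the DREAM subunit LIN37 (0.22 ± 0.079, limma adjusted p = 0.0454). The groups of LIN37 lay 0.01 apart. RB1, the retinoblastoma protein, gave 0.0187 ± 0.069 (adjusted p = 0.874).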
